A study of Mus musculus with 10 samples.

Results

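The 38 genes described here encode the carriers and enzymes that take glucose to lactate, the kinases that set the rate of that route, and the oxygen-sensing proteins and target genes of the hypoxia response. They were chosen by name for these functions, with earlier results of these data known, from the 18384 genes listed in the mRNA files. Their counts against all tested genes may therefore not be independent of these data. All 38 were listed in each of the 6 mRNA libraries, and all 38 passed the filter on low counts that left 14009 genes to test. The cells were adipocyte precursors (APs) of mouse subcutaneous white adipose tissue (C57BL/6 J mice per the study's methods, ages not given in the sources used here), which were depleted of CD45 and CD31 cells, selected for SCA-1 and kept in culture. The control group was cultured without added interleukin 4 (IL-4, a type 2 cytokine), and the treated group received IL-4 from the day after seeding. The sources used here name no other difference between the groups. They do not say whether the groups shared animals, library preparation or sequencing runs. The mRNA of 3 control (replicates 1 to 3) and 3 IL-4 libraries (replicates 4 to 6) was sequenced at day 4, and the small RNA of 2 control and 2 IL-4 libraries at day 2. Nothing in the labels says that libraries of a group came from separate animals or cultures. The study's methods call the 2 small RNA libraries of a group biological replicates, without naming the animals or cultures. The p-values therefore measure the spread between the libraries at hand, which may be technical.

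In glycolysis, glucose enters through membrane carriers, is phosphorylated and split, and yields ATP and pyruvate. Pyruvate is then either reduced to lactate, which leaves through monocarboxylate carriers, or oxidized in mitochondria, an entry that the pyruvate dehydrogenase kinases hold back. When oxygen is short, prolyl hydroxylases no longer mark the HIF alpha subunits for destruction, and HIF dimers bind short ACGTG or GCGTG cores and raise transcription of many glycolytic, vascular and mitophagy genes. Both the stromal cells of fat tissue and the macrophages that live beside them can use this program.

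Total expected counts per mRNA library ranged from 28526779 to 29057784, so depth differed little. The share of the counts that fell on the top 10 genes was 9.14% to 9.59% in control libraries and 13.8% to 15.5% in IL-4 libraries. Levels are given here on either of 2 scales. The normalized count is the expected count scaled by edgeR's TMM factors and compares libraries, whereas the FPKM is scaled by transcript length and library total and compares genes. Between the scales the median tested gene moved: its mean FPKM differed by -11.2% in the IL-4 group, and with library totals in place of TMM factors its log2 fold change was -0.17. A change of less than about that size can therefore differ in direction between the scales, and such members are named below.

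The libraries also differed in markers of other cells. All 16 macrophage markers were detected although the cells were depleted of CD45. Their summed FPKM was 4685 to 6138 in control libraries and 1912 to 2584 in IL-4 libraries, 14 of 16 were lower and 1, Mrc1, was higher in the IL-4 group. Ptprc, which encodes CD45, was at 17.0 to 19.0 FPKM in controls and at most 8.48 FPKM with IL-4. All 5 smooth muscle and pericyte markers were lower, with summed FPKM of 788 to 828 in controls and 244 to 282 with IL-4, nearly all of it Acta2. The AP markers were summed at 6470 to 6811 FPKM in controls and 9459 to 10181 FPKM with IL-4, and 6 of 12 were higher and 3 lower. Most of that sum was Col1a1 and Col3a1, and most of the gap was Col3a1, at 2151 to 2201 FPKM in controls and 4818 to 5178 FPKM with IL-4. Lyz2 was likewise the larger part of the macrophage sum in controls, at 2469 to 3225 FPKM. Endothelial markers were summed at 13.53 to 14.35 FPKM in controls and 14.91 to 16.8 FPKM with IL-4. Of these 7 markers, 2 were higher (Vwf and Tek) and 2 lower (Cdh5 and Emcn). Vwf was at 0.67 to 0.88 FPKM in controls and 5.03 to 6.45 FPKM with IL-4, and Cdh5 at 3.34 to 3.42 and 0.81 to 1.14 FPKM. Lymphocyte markers were summed at 1.25 FPKM or less, with 1 of 2 tested lower and Cd3e and Cd3g listed in no library. Of the mature adipocyte markers, only Fabp4 and Lpl passed the filter and both were higher, while Plin1 and Adipoq stayed at or below 0.39 FPKM. The part of these cell types in the results below was not tested, and in bulk RNA fewer cells of a type and less RNA per cell cannot be told apart.

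Upon IL-4 stimulation, 21 of the 38 genes were higher and 5 were lower (edgeR quasi-likelihood test, Benjamini-Hochberg adjusted p below 0.05 over all tested genes), against 19.0% of all tested genes higher and 18.4% lower. The median log2 fold change of the members was 0.23, and that of all tested genes was 0.0026. Beyond a log2 fold change of 1, 4 members were higher (Epas1, Ankrd37, Egln3 and Pfkfb4; 5.77% of all tested genes) and 2 were lower (Pdk4 and Aldoc; 5.26% of all tested genes). The normalized counts of the groups did not overlap for 28 of 38 members, as for 50.4% of all tested genes. The count depends on the scaling: with library totals, 11 members were higher and 10 lower, and among all tested genes the share of calls that were higher went from 50.8% to 25.6%. The direction and the call of 14 members held under all 12 alternatives tried: Epas1, Ankrd37, Egln3, Pfkfb4, P4ha1, Pfkp, Vegfa, Eno2, Bnip3, Adm and Slc2a1 were higher, and Ndrg1, Aldoc and Pdk4 were lower.

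**Figure D1:**
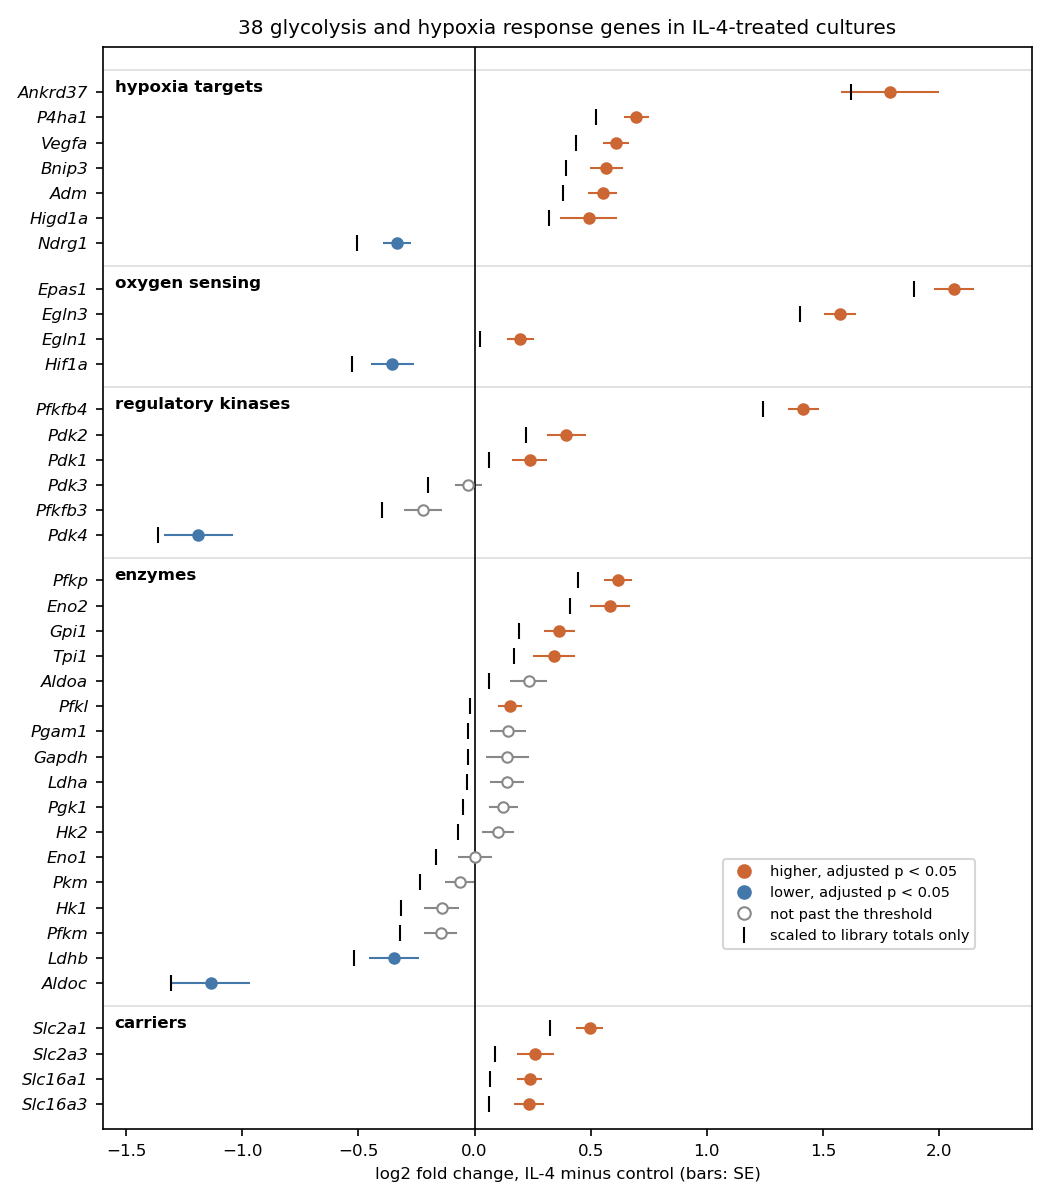
Each point is the log2 fold change of 1 of the 38 genes (IL-4 minus control, 3 libraries a group) with its standard error, grouped by role, and black ticks give the value with libraries scaled to their totals only. The points reach from -1.19 (Pdk4) to 2.06 (Epas1), and for Pfkl, Gapdh, Pgk1, Pgam1, Ldha, Hk2 and Eno1 the tick lies on the other side of 0.

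**Figure D2:**
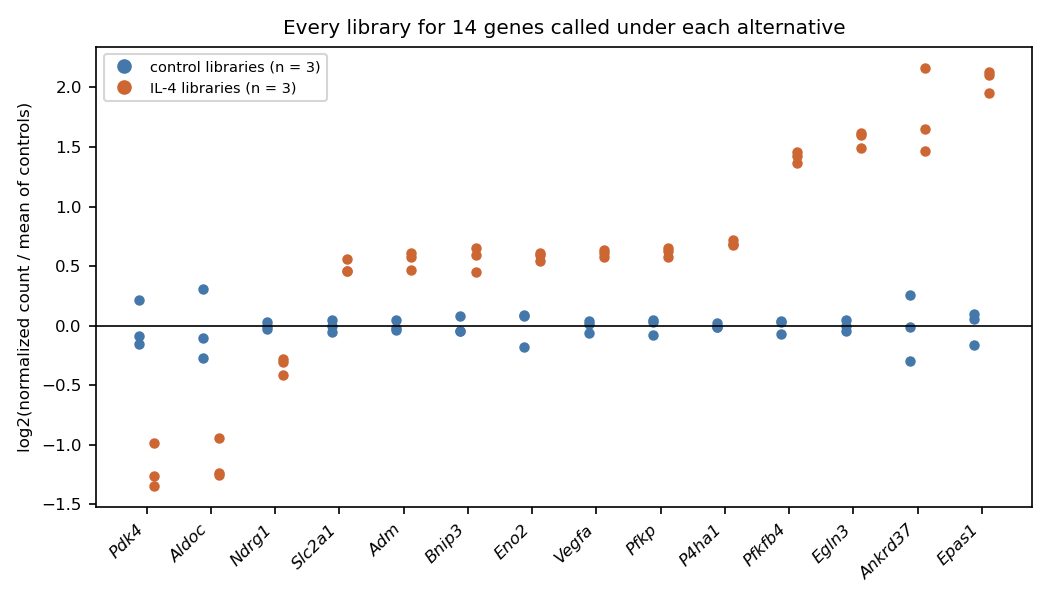
Normalized counts of the 14 genes whose call held under every alternative, each library as a point on the log2 scale relative to the mean of the 3 controls. Control and IL-4 libraries are apart for all 14, and the spread among IL-4 libraries is widest for Ankrd37.

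All 4 carriers were higher upon IL-4 stimulation, against 19.0% of all tested genes. Slc2a1 encodes GLUT1, the main basal glucose carrier of proliferating cells, and lies at chr4:119108745-119137330 (mm10). Its normalized counts were 4423, 4264 and 4570 in the controls and 6093, 6087 and 6522 upon IL-4 stimulation. All stimulated libraries were above all controls, by 1.41-fold (log2 fold change 0.50 ± 0.059 SE, edgeR adjusted p = 0.00033). Slc2a3, which encodes the high-affinity carrier GLUT3, was scarce at 2.71 to 3.06 FPKM and differed by 0.26 on the log2 scale (edgeR adjusted p = 0.033). Slc16a1 and Slc16a3 encode the lactate carriers MCT1 and MCT4, of which MCT4 is known for lactate export from glycolytic cells. They differed by 0.24 each on the log2 scale (edgeR adjusted p = 0.0087 and 0.022). With library totals the differences of Slc2a3, Slc16a1 and Slc16a3 were 0.09, 0.06 and 0.06 and none was called, whereas Slc2a1 was still called at 0.32. The call of Slc2a3 was also lost in DESeq2 and in 5 of the 6 fits that left out 1 library, and that of Slc16a3 with upper-quartile scaling and without control replicate 1, control replicate 2 or IL-4 replicate 5.

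Among the 17 enzyme genes, 5 were higher (Gpi1, Pfkl, Pfkp, Tpi1 and Eno2), 2 were lower (Aldoc and Ldhb) and 10 did not pass the test. That is 29.4% higher and 11.8% lower, against 19.0% and 18.4% of all tested genes. The 10 lay between -0.15 (Pfkm) and 0.23 (Aldoa) on the log2 scale and include the most abundant genes of the route: Aldoa, Gapdh, Pgk1, Pgam1, Eno1, Pkm and Ldha. On the FPKM scale the summed transcript level of the members at a step differed far more between steps of the route than between groups. Hexokinase, the first enzyme step, was the lowest at 50.1 ± 1.22 FPKM in controls (SD, n = 3). This sum holds Hk1 and Hk2 and leaves out Hk3, which is not a member. Phosphofructokinase, the committed step, was at 91.0 ± 1.10 FPKM. Glyceraldehyde phosphate dehydrogenase was the highest at 2301 ± 185 FPKM, followed by enolase (1015 ± 35.2), pyruvate kinase (944 ± 35.6) and aldolase (919 ± 38.4), and these last 2 overlap in their spread.

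Gapdh, often used as a reference gene, had 84098, 79254 and 90689 normalized counts in controls and 85901, 89931 and 104370 with IL-4. The groups overlap (log2 fold change 0.14 ± 0.092 SE, edgeR adjusted p = 0.28), and IL-4 replicate 6 is the highest. The same library was the highest of its group for Aldoa, Tpi1, Pgam1, Eno1, Pkm and Ldha. Pkm, which encodes both pyruvate kinase M isoforms, had 61197, 58608 and 62014 normalized counts in controls and 55652, 57385 and 60812 with IL-4. Its groups overlap as well (-0.06 ± 0.064 SE, edgeR adjusted p = 0.47). Ldha, which reduces pyruvate to lactate, had 24870, 23896 and 25835 normalized counts in controls and 25336, 27343 and 29501 with IL-4 (0.14 ± 0.073 SE, edgeR adjusted p = 0.18). The direction of Gapdh, Pgk1, Pgam1, Ldha and Hk2 turned with library totals, to between -0.03 and -0.07, and Pkm, Hk1 and Pfkm were then called lower.

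**Figure D3:**
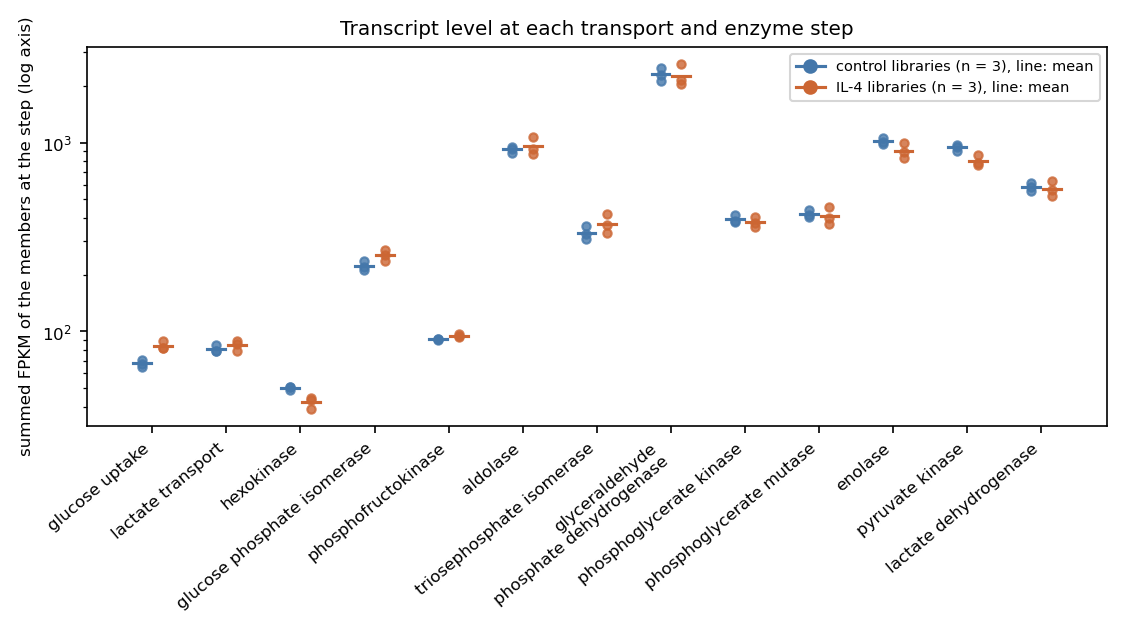
Summed FPKM of the members at each carrier and enzyme step on a log axis, with 3 control and 3 IL-4 libraries as points and group means as lines. Hexokinase (Hk1 and Hk2, without Hk3) is the lowest step (50.1 FPKM in controls) and glyceraldehyde phosphate dehydrogenase the highest (2301 FPKM), in both groups.

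At the phosphofructokinase step, Pfkp, the platelet-type isoform, had 2020, 2200 and 2183 normalized counts in controls and 3182, 3303 and 3347 with IL-4. It was 1.54-fold higher in IL-4 cultures (log2 fold change 0.62 ± 0.059 SE, edgeR adjusted p = 0.00010), with no overlap. Pfkl, the liver-type isoform, rose by 0.15 (edgeR adjusted p = 0.0495), a call lost in 5 of the 6 fits that left out 1 library, and turned to -0.02 with library totals. Gpi1, which converts glucose to fructose phosphate, and Tpi1, which interconverts the triose phosphates, rose by 0.36 and 0.34 on the log2 scale (edgeR adjusted p = 0.0033 and 0.018), and neither was called with library totals (0.19 and 0.17). The call of Tpi1 was also lost without control replicate 1 or control replicate 2.

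Aldolase and enolase each pair an abundant with a scarce isoform, and the scarce isoforms moved. Aldoc, the brain-type aldolase (chr11:78323073-78327781), had 422, 374 and 562 normalized counts in controls and 193, 190 and 235 with IL-4. The IL-4 libraries were all lower, to 0.46-fold of control (log2 fold change -1.14 ± 0.17 SE, edgeR adjusted p = 0.0011); without control replicate 3, the highest control, the value was -0.95. Eno2, the neuron-type enolase, had 681, 569 and 685 normalized counts in controls and 974, 938 and 986 with IL-4 (0.58 ± 0.085 SE, edgeR adjusted p = 0.0010). Both are small fractions of their step: Aldoc held 0.69% ± 0.13 (SD, n = 3) of aldolase FPKM in controls and 0.27% ± 0.014 with IL-4, and Eno2 held 0.88% ± 0.067 and 1.31% ± 0.090 of enolase FPKM. Ldhb, the heart-type lactate dehydrogenase, fell from 1.66% ± 0.036 to 1.18% ± 0.092 of lactate dehydrogenase FPKM (gene test -0.35 ± 0.11 SE, edgeR adjusted p = 0.037), a call lost in 5 of the 6 fits that left out 1 library. Hk2, the inducible hexokinase, did not pass the gene test (0.10 ± 0.070 SE, edgeR adjusted p = 0.30). Its share of the summed FPKM of Hk1 and Hk2 was 24.4% to 24.6% in controls and 27.4% to 28.2% with IL-4, and Hk3 was not counted. For Aldoa the groups did not overlap, at 36457, 34671 and 36855 against 38824, 41449 and 46605 normalized counts, and the gene did not pass the test (0.23 ± 0.080 SE, edgeR adjusted p = 0.052). It was called higher in DESeq2, without the filter and without IL-4 replicate 4 or IL-4 replicate 6, and was at 0.06 with library totals.

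Among the 6 regulatory kinases, 3 were higher (Pfkfb4, Pdk1 and Pdk2) and 1 was lower (Pdk4), against 19.0% and 18.4% of all tested genes. The PFKFB enzymes make and remove a regulatory fructose bisphosphate that activates phosphofructokinase and is distinct from its product. Pfkfb4 (chr9:108988272-109032236) had 390, 420 and 417 normalized counts in controls and 1126, 1054 and 1096 with IL-4. Every IL-4 library was far above every control. It was 2.67-fold higher (log2 fold change 1.42 ± 0.068 SE, edgeR adjusted p = 2.2e-06). Pfkfb3, its more kinase-active relative, had 1584, 1618 and 1648 normalized counts in controls and 1451, 1480 and 1227 with IL-4; it did not pass the test (-0.22 ± 0.081 SE, edgeR adjusted p = 0.063), and was called with upper-quartile scaling, library totals and both FPKM fits. Pfkfb4 held 26.5%, 27.8% and 26.8% of PFKFB FPKM in controls and 53.3%, 51.1% and 56.3% with IL-4. On the FPKM scale the more abundant of the pair was thus Pfkfb3 in each control and, by a small margin, Pfkfb4 in each IL-4 library. By normalized counts, which do not allow for transcript length, Pfkfb3 was the higher in every library.

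The pyruvate dehydrogenase kinases differed among themselves. Pdk4, the kinase known to rise with fasting and fatty acid use (chr6:5483351-5496278), had 185, 228 and 177 normalized counts in controls and 99.5, 82.2 and 77.4 with IL-4. All IL-4 libraries were below all controls, at 0.44-fold (log2 fold change -1.19 ± 0.15 SE, edgeR adjusted p = 0.00047). Pdk1, the kinase known as a HIF target, and Pdk2, the most widely expressed one, rose by 0.24 and 0.39 on the log2 scale (edgeR adjusted p = 0.039 and 0.0073) and were not called with library totals. The call of Pdk1 was also lost in 5 of the 6 fits that left out 1 library. Pdk3 had a log2 fold change of -0.03 (edgeR adjusted p = 0.76), and was called lower with library totals (-0.20) and in both FPKM fits. Summed over the family the FPKM was 53.4 ± 0.816 in controls and 50.9 ± 1.42 with IL-4 (SD, n = 3), of which Pdk4 took 4.01% ± 0.59 and 1.63% ± 0.22.

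The 4 oxygen-sensing genes had the largest median log2 fold change of the 5 role groups, 0.88, with 3 higher and 1 lower. Of all tested genes, 19.0% were higher and 18.4% lower. Epas1 encodes HIF-2 alpha and lies at chr17:86753864-86833410. Its normalized counts were 1995, 1939 and 1668 in controls and 8182, 8015 and 7230 with IL-4. The lowest IL-4 library was more than 3 times the highest control, and the fitted difference was 4.18-fold (log2 fold change 2.06 ± 0.088 SE, edgeR adjusted p = 1.3e-06). Hif1a, which encodes HIF-1 alpha (chr12:73901324-73947554), went the other way, with 18139, 18282 and 16149 normalized counts in controls and 14654, 14459 and 12012 with IL-4. It was 0.78-fold of control (-0.35 ± 0.093 SE, edgeR adjusted p = 0.018) without overlap; without control replicate 1 or control replicate 2 the adjusted p was 0.075 or 0.072.

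Together the HIF alpha transcripts summed to 152 ± 9.33 FPKM in controls and 145 ± 10.7 with IL-4 (SD, n = 3), values that overlap, while their mix differed. Epas1 was 8.79%, 8.51% and 8.29% of the pair in controls and 32.9%, 32.7% and 34.4% with IL-4, a difference of 24.8 percentage points. Hif1a was still the more abundant in each IL-4 library, at 102, 101 and 86.9 FPKM against 50.01, 48.99 and 45.5 FPKM for Epas1.

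Egln3 encodes the prolyl hydroxylase PHD3, itself a known HIF target, and lies at chr12:54178981-54203874. It had 397, 409 and 424 normalized counts in controls and 1154, 1261 and 1244 with IL-4. The groups were far apart, with a 2.97-fold difference (log2 fold change 1.57 ± 0.069 SE, edgeR adjusted p = 1.4e-06). Egln1, which encodes PHD2, the main oxygen sensor, rose by 0.20 (edgeR adjusted p = 0.029), 0.02 with library totals, and lost its call without control replicate 1, control replicate 2 or IL-4 replicate 5. Egln3 held 12.9% to 13.3% of the pair's FPKM in controls and 27.6% to 28.6% with IL-4.

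**Figure D4:**
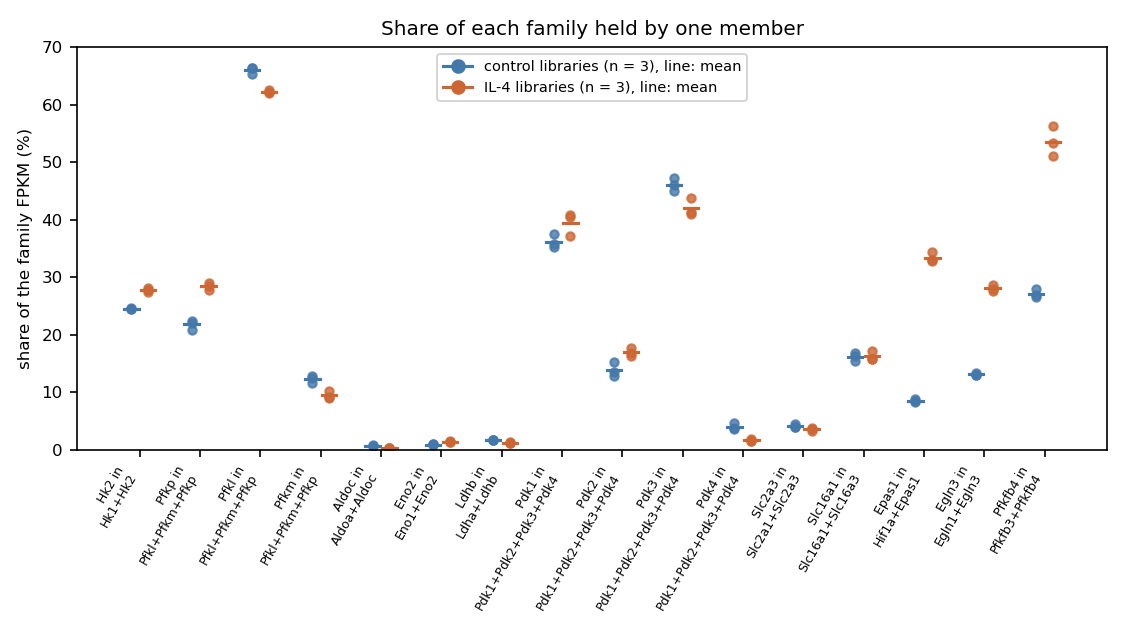
Share of the family FPKM (%) held by 1 member of each enzyme, kinase, carrier or sensor family, with 3 control and 3 IL-4 libraries as points and group means as lines. Families were counted over the genes described here, so Hk3 is left out. The widest gaps are those of Pfkfb4 (27.0% against 53.5%), Epas1 (8.53% against 33.3%) and Egln3 (13.1% against 28.0%), and the shares of Pdk1 and Slc16a1 overlap.

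For 14 of the 16 shares compared, control and IL-4 libraries did not overlap, and the normalized counts of 50.4% of all tested genes did not overlap either. The phosphofructokinase shares are parts of 1 whole, as are those of the pyruvate dehydrogenase kinases, so they are not separate results. An exact permutation test of 3 against 3 libraries (two-sided) cannot give a p below 0.1, which each of those 14 reached (0.11 after Benjamini-Hochberg adjustment over the 16), so no share passes a threshold of 0.05 in this design. The share of Pdk1 had an exact p of 0.2 and that of Slc16a1 an exact p of 1. The shares do not depend on the scaling of libraries, since both terms come from 1 library.

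Of the 7 genes grouped here as hypoxia targets, 6 were higher and Ndrg1 was lower, against 19.0% and 18.4% of all tested genes. None of the 7 overlapped between groups, as for 50.4% of all tested genes. The group leaves out glycolytic genes that HIF can also raise, which were counted above as enzymes, carriers or kinases. Of the 17 enzymes, 10 were not called, among them Ldha, Pgk1 and Eno1. Ankrd37, an ankyrin repeat gene known as a strong HIF target (chr8:45996908-46000414), had 136, 111 and 163 normalized counts in controls and 378, 429 and 613 with IL-4. The rise was 3.46-fold (log2 fold change 1.79 ± 0.21 SE, edgeR adjusted p = 0.00032), the widest error among the 38 genes. P4ha1, the catalytic subunit of collagen prolyl hydroxylase, was the most abundant target, with 13794, 13786 and 14100 normalized counts in controls and 22387, 22908 and 22221 with IL-4 (0.70 ± 0.054 SE, edgeR adjusted p = 3.0e-05).

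Vegfa, the main angiogenic growth factor, had 6467, 6137 and 6572 normalized counts in controls and 9938, 9779 and 9516 with IL-4. Its difference of 1.52-fold was far larger than the spread within groups (log2 fold change 0.61 ± 0.056 SE, edgeR adjusted p = 8.6e-05). Bnip3, a mitophagy receptor, had 4488, 4483 and 4886 normalized counts in controls and 6326, 6953 and 7265 with IL-4 (0.57 ± 0.071 SE, edgeR adjusted p = 0.00046). Adm, the precursor of the vasodilator adrenomedullin, had 1927, 1947 and 2045 normalized counts in controls and 2724, 2940 and 3017 with IL-4 (0.55 ± 0.062 SE, edgeR adjusted p = 0.00026).

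Higd1a, a small inner-membrane protein of mitochondria, rose by 0.49 ± 0.12 SE (edgeR adjusted p = 0.015), and lost its call with library totals (0.32) and without control replicate 1 or control replicate 2. Ndrg1, a stress-responsive gene that hypoxia is known to raise, had 2719, 2668 and 2616 normalized counts in controls and 1998, 2199 and 2154 with IL-4. It was 0.79-fold of control (log2 fold change -0.33 ± 0.059 SE, edgeR adjusted p = 0.0030), opposite in direction to the other 6 targets.

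To set the members beside the motif that HIF dimers bind, the 250 bases before each annotated start (RefSeq, GRCm38.p6) were searched for the cores ACGTG and GCGTG on both strands. ACGTG overlaps the E-box CACGTG, which other factors bind. Windows were given for 35 of the 38 members, and 32 of these (91.4%) held at least 1 core in at least 1 window, against 41.5% of 27025 genes (80.0% of member windows and 38.6% of all windows). Member windows were also richer in G and C, with a median of 61.0% against 52.4%. The comparison held every gene with a window, whether or not it was tested here, and the members include genes chosen as known HIF targets. The gap was not tested. The core did not separate the members by response: it was present for 16 of 19 members that rose, 4 of 4 that fell and 12 of 12 that were not called. The sequences are shown for the members that rose under every alternative and whose window holds a core, lies outside the annotated span of the gene and touches no annotated exon, to let the position of the cores be read. The cores are in capitals, as ACGTG or GCGTG or their reverse complements CACGT or CACGC, and the last base of each window lies just before the annotated start.

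Egln3, chr12:54203875-54204124, minus strand: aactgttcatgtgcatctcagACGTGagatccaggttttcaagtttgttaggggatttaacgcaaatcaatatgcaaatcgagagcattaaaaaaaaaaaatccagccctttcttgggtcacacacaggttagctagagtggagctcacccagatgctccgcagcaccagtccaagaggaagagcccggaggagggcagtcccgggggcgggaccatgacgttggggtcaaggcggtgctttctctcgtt
Bnip3, chr7:138909507-138909756, minus strand: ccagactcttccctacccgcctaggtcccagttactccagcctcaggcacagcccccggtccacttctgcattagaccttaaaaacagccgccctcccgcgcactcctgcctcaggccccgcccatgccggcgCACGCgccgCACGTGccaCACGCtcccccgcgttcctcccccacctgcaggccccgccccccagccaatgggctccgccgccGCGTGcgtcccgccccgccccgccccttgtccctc
Adm, chr7:110627407-110627656, plus strand: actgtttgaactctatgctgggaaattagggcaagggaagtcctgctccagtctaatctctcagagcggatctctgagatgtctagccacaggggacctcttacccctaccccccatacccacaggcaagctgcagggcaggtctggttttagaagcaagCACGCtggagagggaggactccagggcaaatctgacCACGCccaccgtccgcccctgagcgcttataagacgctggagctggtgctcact

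The Bnip3 window holds 5 core matches, of which a pair overlaps in 1 CACGTG, and they begin 117 to 35 bases before the start. The Adm window holds 2 cores, 90 and 54 bases before the start, and the Egln3 window 1 core, 229 bases before it. These matches describe the letters of the windows, and no binding was measured here.

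miR-210 is the microRNA most widely known to rise with HIF activity, and it was read in the small RNA libraries, harvested earlier than the mRNA. Its arms are shown with the seed, bases 2 to 8, in capitals, as listed in the deposited files and RefSeq (hairpin on chromosome 7, minus strand).
miR-210-3p: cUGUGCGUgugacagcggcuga
miR-210-5p: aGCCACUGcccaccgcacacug

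The 3p arm, the more abundant, had 6305 and 8638 normalized reads in the controls and 8082 and 7713 upon IL-4 stimulation. Both stimulated libraries fell between the controls (log2 fold change 0.08 ± 0.23 SE, edgeR adjusted p = 0.99). The 5p arm had 428 and 394 normalized reads in controls and 230 and 398 with IL-4 (-0.38 ± 0.30 SE, edgeR adjusted p = 0.98). With 2 libraries a group no microRNA of 640 passed the adjusted threshold in edgeR, 39 (6.09%) had an unadjusted p below 0.05, and DESeq2 called 12. Neither arm of miR-210 passed in either tool.

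Beyond the 38 genes, 7 lists of neighbouring pathway genes that hold none of the members give the surroundings. They too were chosen with earlier results of these data known. The counts of these lists stand against 19.0% of all tested genes higher and 18.4% lower, or 12.2% and 35.4% with library totals. Of the 30 tested genes among other known HIF targets, 19 were higher and 4 lower, with a median log2 fold change of 0.40 (14 higher and 4 lower with library totals). Plod2, a lysyl hydroxylase of collagen, had 10002, 10226 and 10219 normalized counts in controls and 34339, 35873 and 31463 with IL-4 (1.74 ± 0.068 SE, edgeR adjusted p = 8.7e-07). Tfrc, the transferrin receptor, and Bhlhe40, a transcriptional repressor of the clock, rose by 1.64 and 1.54 on the log2 scale (edgeR adjusted p = 1.2e-06 and 6.6e-07). Among those that fell, Hmox1, a heme oxygenase, was at 0.63-fold and Stc1, a secreted calcium regulator, at 0.66-fold (edgeR adjusted p = 0.00056 and 0.0044).

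Of the other HIF machinery, 2 of 9 tested genes were higher and 0 lower, at small sizes: Arnt, the shared HIF partner, rose by 0.29 and Vhl, the ligase subunit that binds hydroxylated HIF, by 0.17 (edgeR adjusted p = 0.021 and 0.039). Both calls were lost in 5 of the 6 fits that left out 1 library (all but that without IL-4 replicate 6). With library totals 0 were higher and 2 lower in this list, and in DESeq2 1 was higher.

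Among other glucose and lactate carriers, 4 of 10 tested genes were higher and 2 lower. The largest rises were those of the chaperones that bring monocarboxylate carriers to the membrane: Emb (embigin) had 5178, 5062 and 5404 normalized counts in controls and 19337, 18977 and 20131 with IL-4 (3.74-fold, 1.90 ± 0.060 SE, edgeR adjusted p = 3.0e-07), and Bsg (basigin) was 1.80-fold higher (edgeR adjusted p = 0.00029). Slc2a13, an inositol carrier, rose by 0.72, Slc16a4, a monocarboxylate carrier relative, fell by 1.45 and Slc2a9, a urate carrier, fell by 0.48 on the log2 scale (edgeR adjusted p = 0.012, 0.00020 and 0.039). The call of Slc2a9 was lost without control replicate 1, control replicate 2, IL-4 replicate 4 or IL-4 replicate 6.

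Of the other glycolytic enzymes, 2 were higher and 2 lower of 15 tested (2 and 5 with library totals), with a median log2 fold change of -0.05. Galm, a sugar mutarotase, and Hk3, the hexokinase of myeloid cells, rose by 0.90 and 0.55 on the log2 scale, and Pgm2l1 and Bpgm, which make bisphosphate sugars and bisphosphoglycerate, fell by 1.24 and 0.56 (edgeR adjusted p from 6.5e-05 to 0.0033). Of 16 macrophage markers 14 fell and Mrc1 rose, and whether the cell mix bears on Hk3 was not tested. In the pentose phosphate pathway, the branch that makes NADPH and ribose, 1 of 8 was higher (H6pd, the enzyme of the endoplasmic reticulum, 0.74) and 2 were lower (Pgd, -0.54, and G6pdx, -0.18), and 5 were lower with library totals. The call of G6pdx was lost in 5 of the 6 fits that left out 1 library (all but that without IL-4 replicate 6).

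At the entry of pyruvate into mitochondria, 3 of 11 genes were higher and 1 lower (3 and 2 with library totals). Pcx, the pyruvate carboxylase, had 482, 495 and 465 normalized counts in controls and 1584, 1527 and 1295 with IL-4, without overlap (3.05-fold, 1.61 ± 0.089 SE, edgeR adjusted p = 5.1e-06). Dlat, a core subunit of pyruvate dehydrogenase, and Pdp1, the phosphatase that reactivates it, rose by 0.64 and 0.54, and the second phosphatase Pdp2 fell by 0.60 on the log2 scale (edgeR adjusted p = 0.00010, 0.00037 and 0.048). The call of Pdp2 was lost without control replicate 1, control replicate 2 or IL-4 replicate 5. Glycogen metabolism had 8 of 13 genes higher and 0 lower (5 and 2 with library totals, and 5 higher without control replicate 1, control replicate 3 or IL-4 replicate 5). Its largest rises were those of Ppp1r3c, which targets a phosphatase to glycogen (1.75), Ugp2, which makes UDP-glucose (1.15), and Ppp1r3b, a relative of Ppp1r3c (0.51).

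**Figure D5:**
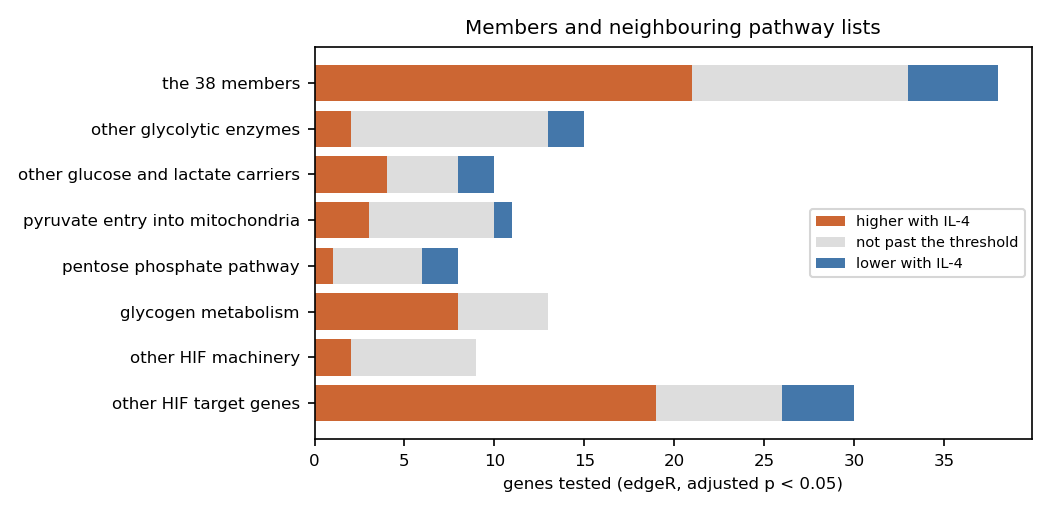
Number of tested genes that were higher, lower or not past the threshold (edgeR adjusted p below 0.05) among the 38 members and in each of 7 neighbouring lists. The members (21 of 38 higher, 5 lower) and the other HIF target genes (19 of 30 higher, 4 lower) are the longest lists and hold the most rises by number. In glycogen metabolism 8 of 13 were higher and 0 lower, and other glycolytic enzymes stay mostly uncalled (11 of 15). Of all tested genes, 19.0% were higher and 18.4% lower.

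The reads of Gpi1, Pfkp, Gapdh and Eno1 were in part shared with other transcripts, since their expected counts are not whole, so their values are less certain than those of the other members. Exons of Ankrd37, Bnip3, Slc2a1, Pfkp, Hif1a and 7 further members overlap those of another gene in the GENCODE annotation, most on the opposite strand, and whether counting used strand is not given in the sources used here.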

How the data were processed

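Per the labels and the study's methods, poly-A mRNA was sequenced on a BGISEQ platform, and the authors aligned reads to mm10 with HISAT and quantified RefSeq transcripts with Bowtie2 and RSEM; versions are not given in the sources used here. The deposited mRNA tables hold 1 expected count and 1 FPKM value per gene, and the deposited small RNA tables hold read counts per precursor and arm from miRDeep2 with miRBase. A row without a gene name was left out (at most 0.000225% of a library).

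Expected counts were rounded and tested with edgeR 4.0.16 (R 4.3.3): TMM scaling, filterByExpr (minimum count 10, total 15), quasi-likelihood fit of IL-4 against control, and Benjamini-Hochberg adjustment over all tested genes, with calls at an adjusted p below 0.05. The study's added limit of a log2 fold change of 1 was a second rule. The scripts were first tested on simulated data. Alternatives were DESeq2 1.42.0, upper-quartile scaling, library totals, omitting the filter, FPKM on a log2 scale (pseudocounts 1 and 0.1) in limma 3.58.1, and leaving out each library; library totals for the pathway lists were added after seeing the data. Shares were compared with exact permutation tests. miRNA reads numbered 23790821 to 32061504 per library.

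All members are named. Full statistics are given for members with an adjusted p below 0.05 and a log2 fold change of at least 0.5 in size and for 13 fixed ones, and per list for up to 3 rises and 3 falls with a mean of at least 50 normalized counts; 1 gene this rule names is not reported here. The members and lists were chosen with earlier results of these data known.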

Additional observations from a re-analysis of the deposited data

How the results depend on the processing

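Of the 26 members called, 14 kept direction and call under all 12 alternatives tried and 17 when each mRNA library was left out in turn. Scaling mattered most. Members higher numbered 11 with library totals, 11 with limma on log2(FPKM + 1) and 11 with limma on log2(FPKM + 0.1), against 21, and members lower 10, 9 and 9, against 5. Of all tested genes, 12.2%, 12.1% and 12.1% were then higher, against 19.0%, and 35.4%, 35.1% and 35.0% lower, against 18.4%. Beyond a log2 fold change of 1, 1 member was lower with limma on log2(FPKM + 1). These 3 settings lack the TMM factors. Left-out libraries gave 14 to 23 members higher and 3 to 5 lower (fewest of both without control replicate 1 or control replicate 2). Of all tested genes they gave 14.2% to 22.6% higher and 13.5% to 21.3% lower. Beyond a log2 fold change of 1 they gave 4 higher each time and 1 to 2 lower (1 without control replicate 3, where Aldoc was at -0.95).

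Directions turned as follows, in the order library totals, limma on log2(FPKM + 1) and limma on log2(FPKM + 0.1). Hk2 was at -0.073, -0.068 and -0.073, Pfkl at -0.021, -0.021 and -0.022, Gapdh at -0.030, -0.028 and -0.028, Pgk1 at -0.048, -0.050 and -0.051, Pgam1 at -0.028, -0.033 and -0.033, Eno1 at -0.17, -0.17 and -0.17 and Ldha at -0.032, -0.037 and -0.037. Eno1 was also at -0.017 with upper-quartile scaling and at -0.00027 with DESeq2, and from -0.050 to 0.065 without single libraries. Pdk3 ranged from -0.050 to 9.1e-05 without single libraries. The cause of each turn was not tested.

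miR-210-3p was at -0.089 with upper-quartile scaling and from -0.11 to 0.35 without single libraries, and its adjusted p was at least 0.8585 under each alternative. With the replicate number as a block it was at 0.10 (edgeR adjusted p = 0.86), and 31 microRNAs passed in place of 0. Same-numbered small RNA libraries deviated together (correlation 0.44), which the labels do not explain. With 2 libraries a group this is 1 value, the same for each pair. The libraries numbered 1 also had fewer miRNA reads (23790821 and 27971661) than those numbered 2 (32004058 and 32061504). No paired analysis was possible for mRNA because the groups share no replicate number. Family shares kept their direction with expected counts, and so did all but that of Slc16a1 (-0.46 to 0.34 points) without single libraries.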
